A study of Mus musculus with 4 samples.

Results

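The bone morphogenetic protein (BMP) pathway was followed through 10 genes in 3 roles: the ligands Bmp2, Bmp4, Bmp5 and Bmp7, the antagonists Nog, Chrd and Grem1, and the Id genes Id1, Id2 and Id3. They were chosen by name, with earlier results of these data known. Every non-control probe whose accession carries one of these symbols was taken, which gave 14 probes of 41105 on the array, for 10 genes of 16995 with a symbol. Bmp5, Bmp7, Id1 and Id2 had a pair of probes each and the others 1. RNA came from dissected organ primordia of ICR mouse embryos, an outbred strain, at E11.5, counted from the vaginal plug. The groups were lung, esophagus, stomach (spelled "gustric" in the labels) and intestine, with 1 array each, with no treatment named in the labels, and all on 1 slide. The extraction text of all 4 samples speaks of stomach, so the organ was taken from the titles and tissue labels; whether tissue was pooled over embryos is not given in the sources used here. With 1 array per organ no difference has a replicate check and no test was made: folds describe these 4 arrays.

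Each level below is the log2 processed signal of a probe minus the 75th percentile of its own array, so 0 is the brightness of the probe at that percentile. Levels were compared between organs for the same probe only. The lung array was the dimmest, with a 75th percentile of 32.0 intensity units, against 379 for esophagus, 320.2 for stomach and 991 for intestine. The scanner software called 39.0% of spots well above background in lung, against 67.9% to 74.0% on the other arrays, and no spot was saturated. A fold that involves a probe under that call uses the array's lowest called level and is given as "at least". For Grem1 in lung and Bmp2 in stomach the probe's own value was higher than that level. That value was used for them, so their folds are plain ratios and not bounds. The lowest called level was −2.39 in lung, −5.75 in esophagus, −5.78 in the stomach and −6.92 in intestine. The organ labels were read against 4 regional transcription factors. Nkx2-1, of lung and thyroid, had 2.47 in lung and −1.10 in esophagus and was not above background in stomach or intestine. Barx1, of stomach mesenchyme, had 0.92 in esophagus, 4.49 in the stomach and −4.35 in intestine and was not above background in lung. Cdx2, of intestinal epithelium, had −4.31 in the stomach and 1.90 in intestine and was not above background in lung or esophagus. Sox2, of the foregut, had −1.77 in lung, 1.09 in esophagus, 0.63 in the stomach and −2.56 in intestine.

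BMPs are secreted signals of the TGF-β superfamily. They bind paired type I and type II receptors, which phosphorylate Smad1, Smad5 and Smad9; these join Smad4 and enter the nucleus. Noggin, chordin and gremlin bind the ligands outside the cell and keep them from the receptors. Id genes are among the direct targets of the Smads, and their products bind bHLH transcription factors and hold them off DNA. In the gut tube, Bmp4 is known from the mesenchyme and around the distal lung buds, and BMP signalling takes part in separating the trachea from the esophagus and in patterning the stomach.

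RefSeq promoter windows on build GRCm38.p6, from 250 bases before to 50 bases after the gene's start, were matched for 6 of the 10 genes: Bmp4, Bmp5, Chrd, Grem1, Id2 and Id3. Of the others, Bmp2, Bmp7 and Id1 lie on chromosome 2 and Nog on chromosome 11. The windows of a ligand and an antagonist whose signal differed between organs and of both matched Id genes, whose signal differed less, are printed 5′ to 3′ on the gene's strand. Capitals mark GGCGCC, a GC-rich element bound by Smad1 and Smad5, and GTCTG, an element bound by Smad4, found on either strand (CAGAC is GTCTG on the other strand).
Bmp4, chr14:46390620-46390919, minus strand: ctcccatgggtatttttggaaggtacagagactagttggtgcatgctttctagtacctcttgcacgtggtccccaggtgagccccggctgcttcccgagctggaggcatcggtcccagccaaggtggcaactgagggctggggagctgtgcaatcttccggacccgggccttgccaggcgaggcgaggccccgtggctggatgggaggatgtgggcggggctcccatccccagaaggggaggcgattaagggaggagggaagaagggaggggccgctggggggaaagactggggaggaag
Grem1, chr2:113758599-113758898, minus strand: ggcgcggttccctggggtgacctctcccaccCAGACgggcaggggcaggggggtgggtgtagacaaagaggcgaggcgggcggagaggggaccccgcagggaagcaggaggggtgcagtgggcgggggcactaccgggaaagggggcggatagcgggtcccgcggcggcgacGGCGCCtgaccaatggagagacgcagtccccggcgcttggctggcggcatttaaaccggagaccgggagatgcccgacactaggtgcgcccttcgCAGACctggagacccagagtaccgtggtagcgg
Id2, chr12:25096043-25096342, minus strand: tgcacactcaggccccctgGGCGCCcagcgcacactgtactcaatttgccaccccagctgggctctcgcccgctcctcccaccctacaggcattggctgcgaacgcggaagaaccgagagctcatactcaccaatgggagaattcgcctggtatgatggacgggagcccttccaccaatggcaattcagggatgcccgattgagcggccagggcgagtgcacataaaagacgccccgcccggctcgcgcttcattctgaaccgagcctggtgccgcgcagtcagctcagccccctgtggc
Id3, chr4:136143572-136143871, plus strand: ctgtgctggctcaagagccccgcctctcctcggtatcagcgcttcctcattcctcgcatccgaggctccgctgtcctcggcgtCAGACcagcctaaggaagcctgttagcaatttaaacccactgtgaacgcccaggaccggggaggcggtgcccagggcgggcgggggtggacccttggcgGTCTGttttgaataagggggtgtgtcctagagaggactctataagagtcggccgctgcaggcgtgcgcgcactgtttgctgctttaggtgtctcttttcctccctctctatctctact

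Grem1 held 1 GGCGCC, at −78 from the start, and 2 copies of GTCTG, at −219 and 17. Id2 held 1 GGCGCC, at −231. Id3 held 2 copies of GTCTG, at −167 and −68, and no GGCGCC, while the Bmp4 window held neither. GGCGCC was also in the Chrd window, and GTCTG in those of Bmp5 and Chrd. Of 32851 such windows over all genes, 11.9% held GGCGCC and 49.6% held GTCTG. The joined element, GGCGCC followed after 5 free bases by GTCT (which overlaps GTCTG), was in 0.0731% of all windows and in none of the 6. TATAAA was in 13.6% of all windows and in none of the 6. A match is only these letters in this window.

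Among the ligands, Bmp4 and Bmp5 were highest in intestine, Bmp7 was highest in stomach, and Bmp2 was well above background in esophagus and intestine alone. Bmp4, the ligand best known from gut and lung mesenchyme, was read by 10 copies of 1 probe per array. Its level was 1.12 ± 0.149 in lung, 0.66 ± 0.057 in esophagus, 0.43 ± 0.058 in the stomach and 1.97 ± 0.098 in intestine (SD over 10 spots, which covers error within an array only). The copies of no organ overlapped those of another: intestine was highest, then lung, then esophagus, then stomach. Esophagus lay 2.48-fold and stomach 2.91-fold below intestine (log2 −1.31 and −1.54), while lung lay 1.80-fold below it. Both gut differences stayed at least 2-fold under all 8 alternative settings, between −1.81 and −1.21 for esophagus and between −1.84 and −1.54 for stomach. Since Bmp4 has 1 probe, called on every array, averaging probes and dropping the filter could not move them. Keeping flagged spots and using the deposited value table barely did. Lung against esophagus, 0.46, had no settled direction, since it was −0.12 after normexp background correction.

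Bmp5, a ligand of the Bmp7 subgroup, had −1.84 in lung, −2.59 in esophagus, −2.71 in the stomach and −1.55 in intestine by its brightest probe. The scanner software's error on these values was 0.295 in lung and 0.145 to 0.151 on the gut arrays. Intestine and lung were the higher organs and esophagus and stomach the lower ones, with esophagus and stomach closer than their errors. Esophagus lay 2.06-fold and stomach 2.24-fold below intestine. The second probe had −5.14 in esophagus, −4.98 in the stomach and −3.75 in intestine, and was not well above background in lung, where it read −4.22. It gave the same order against intestine, with esophagus 2.63-fold and stomach 2.35-fold lower. Under normexp the 2 gut differences of the brightest probe shrank to −0.42 and −0.41, and lung stood above intestine by 0.97 where the reported difference was −0.29.

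Bmp7, a ligand of many epithelia, had 1.3 in lung, 1.40 in esophagus, 1.89 in the stomach and 0.82 in intestine by its brightest probe, each with a software error of 0.144 to 0.148. The second probe, with 10 copies (9 used in lung), had 0.52 ± 0.103 in lung, 0.95 ± 0.072 in esophagus, 1.60 ± 0.065 in the stomach and 0.55 ± 0.058 in intestine (SD over spots). Both probes were highest in stomach, where Bmp4 was lowest, and the copies in stomach overlapped those of no other organ. Stomach lay 2.10-fold above intestine by the brightest probe and 2.07-fold by the second, and under the alternatives the first of these ran between 0.77 and 1.07 on the log2 scale. The order of lung was not settled: it lay above intestine by 0.48 with one probe and level with it (−0.04) with the other.

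Bmp2, a ligand close to Bmp4 in sequence, had −4.36 ± 0.347 in lung, −3.19 ± 0.117 in esophagus, −5.71 ± 0.337 in the stomach and −4.69 ± 0.132 in intestine (SD over 10 spots). In lung 0 of 10 spots and in stomach 2 of 10 spots were well above background, so neither array gives a firm level. Esophagus was the highest of the gut organs, with no copy overlapping another organ's. It lay 5.74-fold above stomach, by the uncalled stomach value, and 2.83-fold above intestine. By the same uncalled value, stomach lay 2.03-fold below intestine. On the log2 scale, the first of these was 0.45 under normexp. The second was 0.81 under quantile normalization and just short of 2-fold under median centring (1.0 after rounding). The last was −0.56 in the deposited value table, and normexp gave no value for it. No fold against lung could be given, since esophagus lay below the lowest level that the lung array could call. Heart muscle markers were highest in esophagus as well: their signals, summed in units of the array's 75th percentile, came to 9.73 in lung (4 of 11 above background), 134 in esophagus (11 of 11), 3.61 in the stomach and 4.15 in intestine (9 of 11 each, without Myl2 and Csrp3). Their part in the Bmp2 level was not tested. Bmp10, a ligand of the heart chambers, was not well above background on any array.

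**Figure D1:**
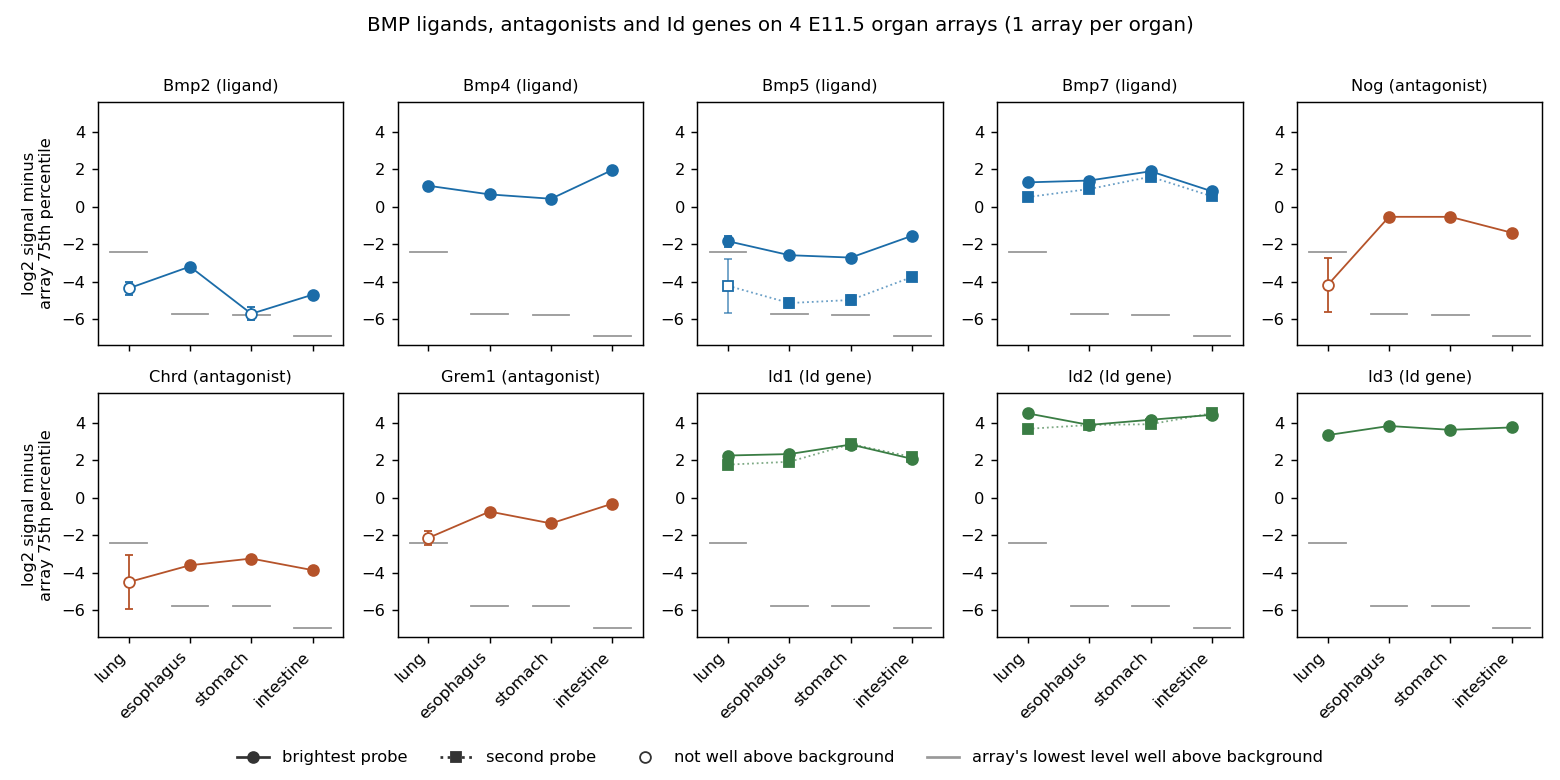
Level of each of the 10 genes (log2 signal minus the array's 75th percentile, y axis) in lung, esophagus, stomach and intestine (x axis), with circles for the brightest probe, squares for a second probe, open symbols where the probe was not well above background, bars for the SD over copies or the scanner software's error, and grey lines for the array's lowest level well above background. Bmp4 peaks in intestine at 1.97, Bmp7 in stomach at 1.89, and no Id gene spans 2-fold by its brightest probe.

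The plot of levels by organ sets the ligands beside the genes that follow, and the plot of single copies shows how far spots of 1 probe spread within an array. The spread within an array was small against the Bmp4 and Bmp7 differences between intestine and stomach. It leaves out dissection, RNA extraction and labelling.

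**Figure D2:**
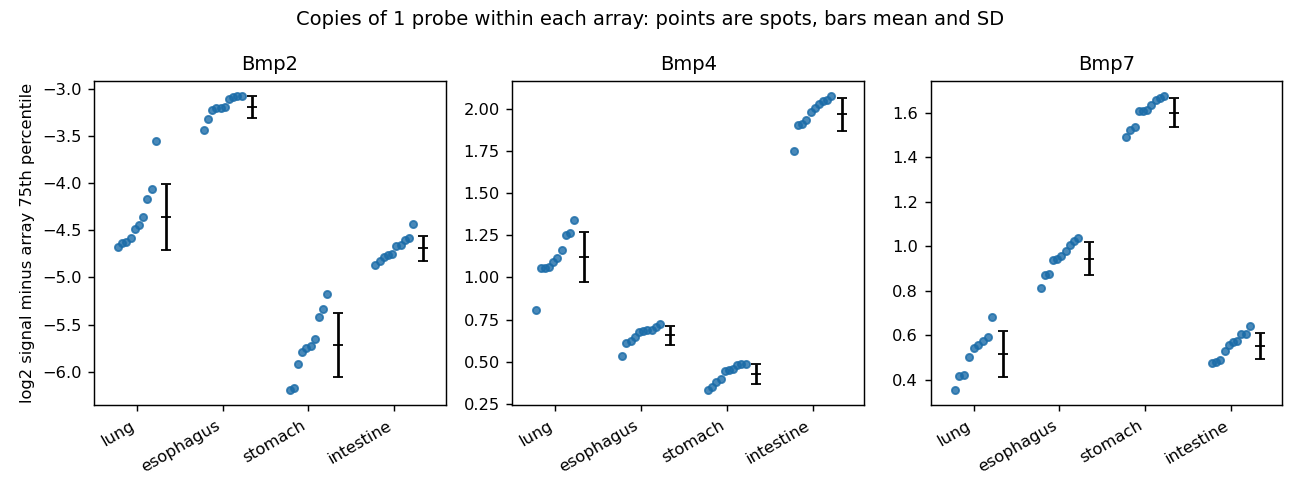
Single copies of 1 Bmp2, 1 Bmp4 and 1 Bmp7 probe on each array (points, sorted by value within an organ; y axis, log2 signal minus the array's 75th percentile, with a scale of its own in each panel), with bars for the mean and SD. The Bmp4 copies in intestine lie between 1.75 and 2.08, above every copy in lung, esophagus and stomach.

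The antagonists Nog, Grem1 and Chrd were well above background in every gut organ and not in lung. Of all genes, 12858 were well above background on every gut array, and 9497 on those and the dim lung array. Nog, which encodes noggin, had −4.19 in lung (not well above background), −0.54 in esophagus, −0.54 in the stomach and −1.39 in intestine, with software errors of 0.144 to 0.145 on the gut arrays. Esophagus and stomach were level and intestine was lower. Lung lay at least 3.62-fold below esophagus, at least 3.61-fold below stomach and at least 2.01-fold below intestine. Esophagus and stomach each lay 1.80-fold above intestine. Under normexp the lung differences shrank to −0.04 against esophagus and −0.09 against stomach on the log2 scale. The lung difference against intestine was −0.92 under median centring and −0.81 under quantile normalization, and normexp gave no value for it.

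Grem1, which encodes gremlin, had −2.13 in lung, −0.73 in esophagus, −1.36 in the stomach and −0.30 in intestine. The lung spot was not called well above background although it lay over the lowest called level. Intestine was highest and stomach the lowest of the gut organs. Stomach lay 2.08-fold below intestine, esophagus 1.34-fold below intestine, and esophagus 1.55-fold above stomach; the first of these was −0.69 on the log2 scale under normexp. By the uncalled lung spot's own value, lung lay 2.65-fold below esophagus, 1.71-fold below stomach and 3.56-fold below intestine. The software error of that spot was 0.374. The difference against intestine shrank to −0.09 on the log2 scale under normexp. The lung difference against esophagus was −0.82 under median centring, and normexp gave no value for it.

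Chrd, which encodes chordin, had −4.49 in lung (not well above background), −3.59 in esophagus, −3.23 in the stomach and −3.85 in intestine. Stomach was the highest of the gut organs, by 1.28-fold over esophagus and 1.54-fold over intestine. No fold against lung could be given, since every gut level lay below −2.39, the lowest level called in lung. Esophagus against intestine, 0.26, turned to −0.24 under median centring and −0.22 under quantile normalization. Noggin and gremlin thus had different orders among the gut organs, and the ratio of their signals can be compared without regard to centring, which cancels in it. The Nog signal relative to Grem1 was 3.73-fold higher in stomach than in intestine and 2.41-fold higher in esophagus than in intestine. This contrast and those of Bmp4 below were chosen after the values were seen.

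The Id genes, whose products are inhibitors of differentiation, were well above background on all 4 arrays, and no Id gene differed 2-fold between any pair of organs by its brightest probe. Id1 had 2.27 in lung, 2.34 in esophagus, 2.85 in the stomach and 2.09 in intestine, and its second probe 1.78, 1.93, 2.88 and 2.19 in the same organs. Both probes were highest in stomach. Stomach lay 1.70-fold above intestine by the brightest probe and 1.61-fold by the second, and lung lay below stomach by 1.5-fold and 2.14-fold. Esophagus against intestine had opposite signs by the 2 probes, 0.26 and −0.26.

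Id2 had 4.51 in lung, 3.90 in esophagus, 4.17 in the stomach and 4.44 in intestine by its brightest probe, and 3.69, 3.90, 3.94 and 4.53 by the second. Both probes put intestine above stomach and esophagus, with esophagus 1.45-fold and 1.55-fold below intestine. They disagreed on lung, which was the highest organ by one and the lowest by the other. Id3 had 3.36 in lung, 3.84 in esophagus, 3.64 in the stomach and 3.77 in intestine, each with a software error of 0.144. The gut organs spanned 1.15-fold, and lung was lowest, by 1.40-fold below esophagus; that sign turned under median centring, to 0.10, as did the sign against stomach. Under normexp each Id gene was over 2-fold lower in lung than in some organ, by −1.89 for Id1 against stomach and by −1.32 for Id2 and −1.64 for Id3 against intestine. Over all genes bright on both arrays, that setting moved the median lung differences by −0.53 to −0.65. Under median centring Id2 was over 2-fold lower in esophagus than in intestine (−1.04) and over 2-fold higher in lung than in esophagus (1.20).

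Of the markers of other cell types, some moved with these levels. Epithelial markers, 6 of 6 above background on every array, summed to 45.3 in lung, 34.1 in esophagus, 100.2 in the stomach and 51.4 in intestine, in units of the array's 75th percentile. Neural crest and neuron markers summed to 1.22 in lung (2 of 3 above background, without Ret), 2.59 in esophagus, 7.63 in the stomach and 6.51 in intestine (3 of 3 each). Both sums were highest in stomach, as were Bmp7 and Id1. Within the epithelial list the keratins Krt8 (4.94), Krt18 (5.93) and Krt19 (2.34) were highest in stomach, while Epcam (0.27 in lung, −0.07 in the stomach), Cdh1 (0.13 and −0.10) and Cldn6 (1.70 and 0.45) were higher in lung than in stomach. Liver markers summed to 27.8 in lung (5 of 8 above background, without Apoa1, Ttr and Trf), 3.72 in stomach (7 of 8, without Ttr) and 66.9 in intestine (8 of 8), with esophagus between stomach and lung (7 of 8, without Ttr), so they were highest where Bmp4, Bmp5 and Grem1 were. Mesenchymal markers summed to 128 in lung (5 of 6, without Twist1), 118 in esophagus, 74.4 in the stomach and 80.3 in intestine (6 of 6 each). Stomach and intestine were the lower organs by this sum, but the list was split. Foxf1 (0.41) and Pdgfra (4.16) were highest in stomach. Col1a1 (6.0) and Twist1 (1.23) were highest in esophagus, and Col3a1 (6.02) and Pdgfrb (3.35) in lung. Endothelial markers summed to 23.1 in lung (7 of 8, without Pecam1), 14.2 in esophagus, 11.53 in the stomach and 17.25 in intestine (8 of 8 each). The part of these cell types in the results was not tested, and in whole organs fewer cells of a type and less RNA per cell cannot be told apart.

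Pair by pair, the members split as follows at 2-fold. The members were chosen with earlier results of these data known, so the shares of all genes beside their counts are a scale only. Between stomach and intestine 5 of 10 differed, against 12.4% of all genes compared: Bmp7 was higher in stomach (1 of 10, against 7.52% of all genes), and Bmp2, Bmp4, Bmp5 and Grem1 were lower (4 of 10, against 4.87%). The Bmp2 difference rested on its uncalled stomach value and was −0.56 in the deposited value table. Under normexp 1 of 9 differed, Bmp4. The median difference was −0.20 for the members and 0.03 for all genes. Between esophagus and intestine 3 of 10 differed, against 20.6% of all genes, with Bmp2 higher in esophagus (1 of 10, against 11.9%) and Bmp4 and Bmp5 lower (2 of 10, against 8.71%); the medians were 0.17 and −0.13. Between esophagus and stomach 1 of 10 differed, against 9.9% of all genes. It was Bmp2, higher in esophagus (5.63% of all genes), again by its uncalled stomach value. The medians were 0.06 and −0.16. Probe choice gives a scale for such differences: over 2508 genes with a pair of bright probes, the SD between the probes' differences was 0.60 for stomach against intestine, 0.86 for esophagus against intestine and 0.44 for esophagus against stomach.

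In the lung pairs, 8 members could be compared, all but Bmp2 and Chrd. Of these, 2 (Nog and Grem1) differed 2-fold from esophagus, against 25.6% of all genes, 1 (Nog) from stomach, against 23.9%, and 2 (Nog and Grem1) from intestine, against 20.6%. Each was lower in lung. The Nog values were bounds, and those of Grem1 rested on its uncalled lung spot. Of all genes, 9.42% were lower than in esophagus, 9.87% than in stomach and 8.4% than in intestine. Over the alternatives the member counts ran between 1 and 4, and their direction changed. Under median centring Bmp4, Bmp5 and Id2 were higher in lung than in esophagus (1.05, 1.33 and 1.20), and Nog lower. Against stomach, Bmp4 and Bmp5 were higher in lung under that setting (1.08 and 1.26), and Nog lower. Quantile normalization and normexp also put Bmp5 at least 2-fold higher in lung than in esophagus and in stomach. The members' medians were −0.09 against esophagus, −0.43 against stomach and −0.35 against intestine, beside 0.28, 0.12 and 0.14 for all genes. The SD between probes was 0.91 to 1.2 in these pairs, larger than every lung difference of Bmp4, Bmp5, Bmp7 and the Id genes by the brightest probe.

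Taking each gene's highest organ, 3 of the 8 genes that could be ordered were highest in intestine (Bmp4, Bmp5 and Grem1, against 21.3% of all genes), 2 in stomach (Bmp7 and Id1, against 19.8%), 2 in esophagus (Nog and Id3, against 16.3%) and 1 in lung (Id2, against 42.7%). Some of these leads were close to ties. On the log2 scale, Nog led stomach by 0.0, and Id3 and Id2 each led intestine by 0.08. The second Id2 probe had lung lowest. None of the 8 stood 2-fold above the next organ, a margin reached by 9.36% of all genes. Without the lung array 3 of 10 did, against 8.59% of all genes: Bmp2 in esophagus, and Bmp4 and Bmp5 in intestine. Over the gut organs 4 of 9 genes spanned at least 2-fold (Bmp4, Bmp5, Bmp7 and Grem1), against 22.6% of all genes. The plot of pair differences shows how these values moved with the settings. Of 14 pair values at least 2-fold, 2 stayed so under every alternative, and both were of Bmp4.

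Set against Bmp7, Nog or Id1, which had other organ orders, the Bmp4 difference exceeded its own fold. Relative to Bmp7, the Bmp4 signal was 6.11-fold lower in stomach and 3.68-fold lower in esophagus than in intestine. Relative to Nog it was 5.24-fold lower in stomach and 4.47-fold lower in esophagus than in intestine. Relative to Id1 it was 4.96-fold lower in stomach than in intestine, and relative to Id3 2.66-fold lower. Relative to Grem1, which shares the high intestine level, it was 1.39-fold lower in stomach and 1.84-fold lower in esophagus than in intestine. No centring of the arrays moves these values.

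Of 52 other pathway genes in 5 lists, 51 had a probe, and they bracket the members upstream and downstream. Of 9 other ligands, 7 were above background somewhere, as were 14506 of 16995 genes in the series, and 6 could be compared between gut organs. Gdf6, which acts in joint and eye development, had −1.05 in esophagus, −1.30 in the stomach and 0.28 in intestine (not well above background in lung), and so was highest in intestine like Bmp4 and Bmp5. Gdf5, of joint development, ran the other way, with −1.68 in lung, −1.71 in esophagus, −2.97 in the stomach and −4.14 in intestine. Bmp3, an atypical member that opposes other BMPs, had −2.0 in esophagus, −4.83 in the stomach and −3.70 in intestine. Esophagus was its highest gut organ, as for Bmp2. Heart markers were high there too, and their part in the Bmp3 level was not tested. Bmp6, Gdf2 and Gdf7 spanned less than 2-fold.

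Of 11 receptors and coreceptors, all were above background on at least 1 array, as were 14506 of 16995 genes in the series. Bmpr1b, a type I receptor, had −0.69 in lung, −2.41 in esophagus, −2.34 in the stomach and −3.92 in intestine. Lung was highest and intestine lowest, where Bmp4 was highest; esophagus lay 2-fold or more above intestine under every alternative, as did stomach and lung. Bmpr2, the main type II receptor, had −0.64 in lung, 1.02 in esophagus, −0.01 in the stomach and −0.34 in intestine, with esophagus highest. Acvr2b, another type II receptor, had −0.30 in lung, 0.93 in esophagus, 1.08 in the stomach and 0.43 in intestine, with lung lowest. Between stomach and intestine 3 of 11 were 2-fold higher in stomach (Bmpr1b, Rgma and Rgmb), against 7.52% of all genes, and none was lower, against 4.87%; Acvr1 spanned 1.90-fold.

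Of the 8 Smads and Smad regulators, none differed 2-fold between esophagus and stomach by its brightest probe, where 9.9% of all genes did. Smad4, the shared partner, had 4.75 in lung, 4.04 in esophagus, 4.24 in the stomach and 4.17 in intestine by its brightest probe. Its second probe had 1.71, 1.47, 1.81 and 2.35 in the same organs, so lung was highest by one and intestine by the other. Smad1, a BMP receptor substrate, spanned 1.47-fold over the organs and Smad5 1.5-fold by their brightest probes, but the probes of each disagreed. The brightest Smad1 probe had lung below esophagus and stomach. Its second probe had lung highest, with −0.92 in lung, −1.90 in esophagus, −1.62 in the stomach and −1.71 in intestine. A second Smad5 probe had −0.06 in lung, 1.21 in esophagus, 0.60 in the stomach and 0.10 in intestine. Smad9, the third substrate, had −3.11 in esophagus, −3.80 in the stomach and −5.19 in intestine, and was lower in intestine. The inhibitor Smad7 spanned 1.98-fold, highest in lung. That order was not settled, since over the alternatives lung minus esophagus fell as low as −0.28 and lung minus intestine −0.17. The ubiquitin ligase gene Smurf1 was lowest in lung, at −1.51.

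Among the other extracellular antagonists and modulators, Bmper spanned 24.6-fold over the organs and Sostdc1 30.7-fold over the gut organs, while Cer1 spanned at least 38.2-fold and Fst at least 18.6-fold over all 4. Between esophagus and intestine 6 of 14 were 2-fold higher in esophagus (Fstl1, Chrdl1, Bmper, Cer1, Nbl1, Sostdc1), against 11.9% of all genes, and 1 lower (Fst), against 8.71%. Sostdc1, a BMP and Wnt antagonist, had 2.15 in esophagus, −0.45 in the stomach and −2.79 in intestine, and was not well above background in lung. It descended along the gut, with esophagus highest and intestine lowest. Fst, which encodes the activin and BMP binder follistatin, ran the other way, with −0.48 in esophagus, 0.90 in the stomach and 1.82 in intestine. Bmper, a BMP-binding modulator of vessels, had 2.68 in lung, 1.63 in esophagus, −1.63 in the stomach and −1.94 in intestine, and its second probe 1.36, 0.30, −3.29 and −3.24. Lung and esophagus stood above stomach and intestine by both probes. Cer1, known as an antagonist of Nodal and BMP, had −1.67 in lung and −2.61 in esophagus and was not above background in stomach or intestine.

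Among 11 other response genes, Bambi, a decoy receptor that BMP signalling induces, had 3.77 in lung, 1.75 in esophagus, 1.20 in the stomach and 1.81 in intestine. Lung was highest, by 5.94-fold over stomach, and that difference stayed at least 2-fold under every alternative. Id4, the fourth Id gene, had 0.04 in lung, −0.49 in esophagus, 0.64 in the stomach and −1.14 in intestine. Stomach was highest, as for Id1, 3.43-fold above intestine; its second probe gave −0.59, −0.69, 0.44 and −1.25. Tbx20, a heart transcription factor, had −0.27 in esophagus, −3.17 in the stomach and −4.40 in intestine. Heart markers were also highest in esophagus, and their part in the Tbx20 level was not tested. Msx2, a homeobox target of BMP, had −3.13 in esophagus, −3.73 in the stomach and −5.40 in intestine. Intestine was its lowest gut organ, where Bmp4 was highest. Msx1 was highest in stomach, at −1.32. Bmp3, Smad9, Fst, Tbx20, Msx1 and Msx2 were not well above background in lung.

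**Figure D3:**
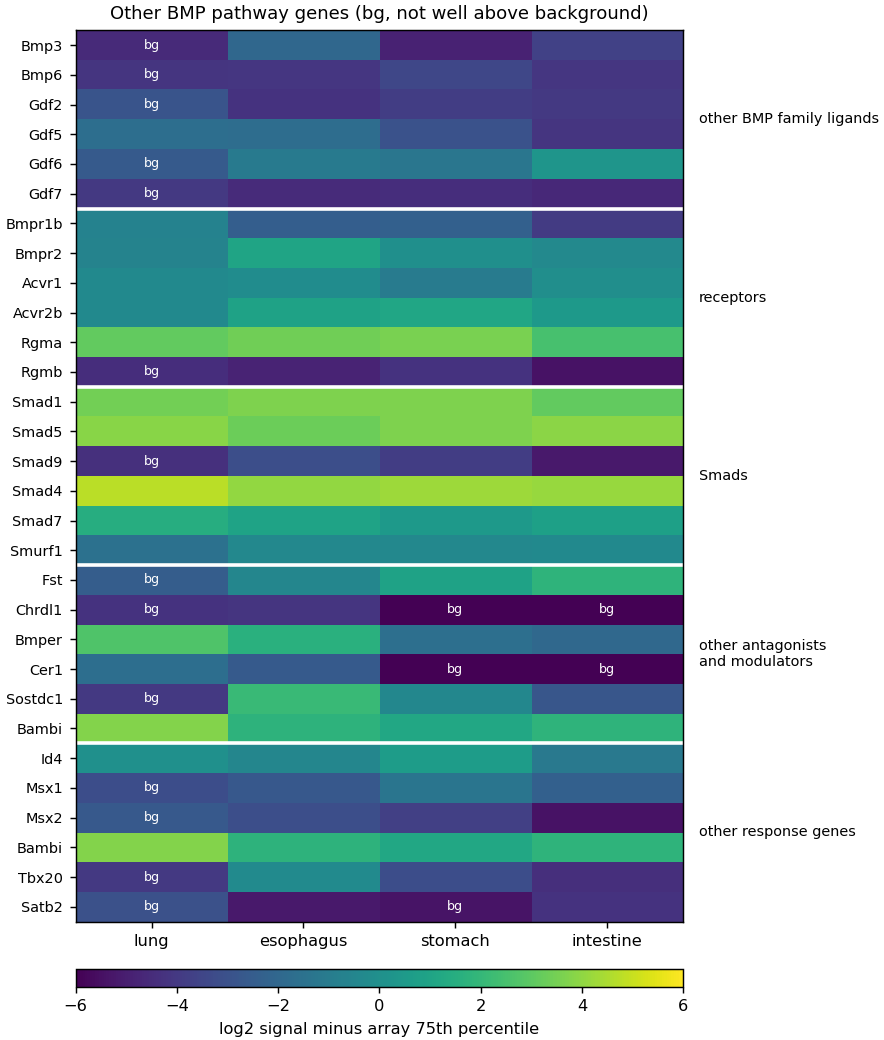
Levels (colour, log2 signal minus the array's 75th percentile) of up to 6 genes per list with the largest range over organs, in lung, esophagus, stomach and intestine; "bg" marks values not well above background. Bambi is highest in lung, Sostdc1 is highest in esophagus, and Fst is highest in intestine.

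The map of pathway genes shows ligand and antagonist genes of both directions; of the Smad list, Smad9 and Smurf1 spanned over 2-fold. For the members above background on all arrays with a 2-fold range, the genes of most similar shape were found by the root mean square difference over the 4 arrays after centring each gene, among 9497 genes. Nearest to Bmp4 was Cyp26b1, a retinoic acid-degrading enzyme, at 0.027, followed by Irgm1 at 0.086 and Rundc1 at 0.093, and 19 genes lay within 0.2. Cyp26b1 had 1.19 in lung, 0.68 in esophagus, 0.52 in the stomach and 2.06 in intestine. Nearest to Bmp5 were Psap (0.031), Rad1 (0.043) and Surf6 (0.049), with 112 genes within 0.2, and nearest to Bmp7 were Rpl39 (0.042), Pum2 (0.070) and Asic1 (0.072), with 120. With 4 points per gene, these likenesses are a description only.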

How the data were processed

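Total RNA from 4 organ primordia was labelled with Cy3 and read in 1 colour, 1 array per organ. The deposited signals are spot intensity values, background-subtracted and detrended within the array by Agilent Feature Extraction 10.5.1.1, per the file headers, and not scaled between arrays; the array design, 014868, refers to build mm8. The deposited value table is on a log2 scale and followed log2 processed signal minus the 75th percentile (lowest r 0.999961; column medians −3.56 in lung, −2.97 in esophagus, −3.17 in the stomach, −3.47 in intestine), which is how its scale, centring and direction are known. It served as an alternative.

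Here, outlier-flagged spots were dropped (69 probes had every spot flagged on some array), log2 signal was averaged over copies of a probe, and the 75th percentile of the non-control probes was subtracted per array. Accessions were matched to RefSeq symbols (GRCm38.p6), which named 24338 of 41105 probes. A gene took its brightest probe by mean over arrays. A probe was well above background when a share above 0.5 of its spots was. A dim array was set to its lowest called level, or to its own value where that was higher; both dim, or no difference left, gave no fold. A call was a log2 difference of at least 1, with no test. The number of arrays limits precision. Steps were tested on simulated data.

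All 10 members are reported in all organs; 2 genes of the other lists were left out of the lists and are not reported here. Of the pathway lists, up to 6 genes with the widest span among those above background on at least 1 array were named, and some list members past that rule are named as the whole of a count. The members and lists were chosen with earlier results of these data known. The 8 alternatives were normexp (offset 50), median centring, the percentile of probes called on every array, quantile normalization, the deposited table, the mean of all probes, no filter, and flags kept. Normexp was planned on mean signals; median signals were used, since no mean signal column was among those read here. Tools were Python 3.11.15, numpy 2.4.6, pandas 2.3.3, R 4.3.3 and limma 3.58.1.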

Additional observations from a re-analysis of the deposited data

How the results depend on the processing

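Of 14 pair values at least 2-fold, 14 were kept at 2-fold with the mean of all probes, with no filter and with flags kept, 13 with the percentile over bright probes and with the deposited table, 12 with quantile normalization, 10 with median centring and 3 of 11 with normexp; none turned sign. Among 54 pair values of any size, 8 changed sign with median centring, 4 with quantile normalization, 3 with the mean of all probes, 2 with the percentile over bright probes, and 10 of 50 with normexp. Counts under an alternative are listed next only where they moved by over 1.5 times, so smaller moves are left out. The count of genes at least 2-fold apart for lung against esophagus was 2, and 4 with median centring. For lung against stomach it was 1, and 3 with median centring, 2 with quantile normalization, 4 with normexp and 3 with no filter. For lung against intestine it was 2, and 1 with median centring, 1 with quantile normalization and 4 with normexp. For esophagus against stomach it was 1, and 0 with normexp; for stomach against intestine it was 5, and 1 with normexp; for esophagus against intestine no alternative moved the count of 3 by over 1.5 times. Genes whose highest organ stood 2-fold above the next numbered 0, and 1 with the percentile over bright probes, 1 with normexp, 1 with no filter and 3 without the lung array. Median centring added 0.59 to every log2 difference of lung against esophagus and −0.50 to every one of esophagus against intestine. The cause of the other changes was not tested. The dim lung array limits what can be said of Bmp2, Chrd, Nog and Grem1 in lung. Its 75th percentile, 32.0, lies below the normexp offset of 50, which limits every lung value under normexp. No paired analysis was possible because each organ had 1 array.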
